A study of Mus musculus with 4 samples.

Results

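The Gimap genes encode GTPases of the immunity-associated protein family, small proteins that bind guanine nucleotides and sit mostly on internal membranes of the cell. Their expression was examined in the endothelial cells (ECs) that form the inner lining of blood and lymph vessels, taken from the dura mater and from the brain parenchyma. The members were the 8 rows of the count tables, of 23282 symbols listed, whose symbol was Gimap1, Gimap3, Gimap4, Gimap5, Gimap6, Gimap7, Gimap8 or Gimap9. The family was chosen by its counts in dura mater ECs against brain ECs, so that difference is a description for the members, and no p-value of theirs is given.

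The family is known best from lymphocytes, where several members set how long resting T and B cells survive. Gimap proteins resemble the septins and dynamins in forming oligomers when bound to GTP, and some have been linked to lysosomes, to autophagy and to proteins of the Bcl2 family. Outside the immune system the family is also expressed in vascular endothelium, and loss of Gimap5 disturbs the sinusoidal endothelium of the liver. All mouse members lie side by side in a single cluster.

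The dura mater is the tough outer sheet of the meninges, and the study compared its ECs with those of the brain parenchyma, having seen that the former sprouted more readily in culture. Both groups were C57BL/6J mice 8 weeks old, given no treatment that the labels name, and each group had 2 libraries. Cells were sorted as CD31+ CD45- TER-119-, a gate that removes leukocytes and erythroid cells, and brain ECs were first enriched on magnetic beads, a step not described for dura mater ECs. QuantSeq libraries, which read the 3′ ends of polyadenylated transcripts, held 13518973 to 16096203 counts each, and how many mice went into a library is not given in the sources used here.

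Replicates stood far apart, which bears on each value below. Of the symbols with 64 or more counts in 1 brain library, 2572 had 7 or fewer in the other, and the same held for 3210 symbols in the dura mater libraries. Dura mater replicate 2 stood apart, with 9835 symbols at 64 or more counts against 6608 to 7281 in the other libraries, and 1208 symbols reached that level in it alone with 7 or fewer elsewhere. The endothelial label was checked against 8 endothelial genes, and all 8 were counted in every library. Pecam1, the CD31 antigen of the sort, had 8390 and 16125 counts in brain ECs compared with 14426 and 23619 in dura mater ECs, and Cdh5, the VE-cadherin of endothelial junctions, had 4708 and 5125 against 7931 and 7279. Of the 8, 5 were higher in dura mater ECs in the fit described below, while Esam, Egfl7 and Erg were lower. Esam had 48457 and 53968 counts in brain ECs compared with 24740 and 38022 in dura mater ECs. Ptprc, which encodes CD45, had 1 and 3 counts in brain ECs compared with 4 and 3 in dura mater ECs.

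The cluster spans 123618 bases of mouse chromosome 6, from 48647234 to 48770851 (GRCm38, GENCODE M21). Along the chromosome stand, in order, Gimap8 (48647234 to 48660875), Gimap9 (48676129 to 48679114), Gimap4 (48684549 to 48692060), Gimap6 (48701582 to 48708225), Gimap7 (48718621 to 48724636), Gimap1 (48739054 to 48743795), Gimap5 (48746197 to 48754210) and Gimap3 (48764464 to 48770851). Gimap6 and Gimap3 are on the minus strand and the other 6 on the plus strand. All 8 are annotated as protein coding.

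The members share a GTP-binding fold whose first loop, the P-loop or Walker A motif, grips the phosphates of the nucleotide. The coding DNA of that loop is shown to make the family visible at the level of sequence, since every member has the loop. Each line gives the coding strand, 5′ to 3′, from GENCODE M21 transcripts (GRCm38), with the 24 bases that encode the loop in capitals and a few bases on either side.
Gimap8: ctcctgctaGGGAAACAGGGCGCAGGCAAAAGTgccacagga
Gimap9: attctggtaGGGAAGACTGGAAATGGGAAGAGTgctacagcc
Gimap4: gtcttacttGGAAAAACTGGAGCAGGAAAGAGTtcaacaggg
Gimap6: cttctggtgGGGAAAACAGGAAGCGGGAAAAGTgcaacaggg
Gimap7: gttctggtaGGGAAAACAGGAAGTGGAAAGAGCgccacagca
Gimap1: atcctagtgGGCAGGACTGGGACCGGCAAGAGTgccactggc
Gimap5: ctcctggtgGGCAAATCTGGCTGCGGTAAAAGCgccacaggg
Gimap3: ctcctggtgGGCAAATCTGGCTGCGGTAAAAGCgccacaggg

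Gimap5 and Gimap3 were identical over this stretch, and the other members differed from one another in it. Of the 24 bases of the loop, 15 (Gimap5 and Gimap3) to 18 (Gimap9 and Gimap7) were the same as in Gimap4. Gimap8 was the long member, with 2067 coding bases and 3 matches to the motif, of which the first is shown. The other 7 had 876 (Gimap9) to 987 (Gimap4) coding bases and 1 match each. Over whole coding sequences, Gimap5 and Gimap3 shared 90.3% of 898 aligned bases, while the other pairs without Gimap8 shared 55.9% (Gimap9 and Gimap1) to 68.0% (Gimap6 and Gimap3).

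Such likeness matters for counting, because reads from 1 member could be placed on another. It was therefore measured in windows of 50 bases over the last 400 bases of transcripts, the stretch that QuantSeq samples. Only protein-coding transcripts of the members in the basic GENCODE set were used, so the ends of their other annotated transcripts were not searched. No window of Gimap8, Gimap9, Gimap4, Gimap6, Gimap7 or Gimap5 occurred in a transcript of any other gene. Of the windows of Gimap1, 36 of 355 (10.1%) also occurred in the predicted genes Gm10310 and Gm49762, and of those of Gimap3, 16 of 353 (4.53%) occurred in Gm38409. None of the members shared a window with another member, Gimap5 and Gimap3 included. Gimap1 also has an antisense neighbour, Gimap1os, which covers 36.0% of its exon length. The edge of Gimap1os nearest to the 3′ end of Gimap1, which is the start of Gimap1os, lies 2351 bases before that end. The position of the 3′ end of Gimap1os was not measured. The use of strand in counting is not given in the sources used here, so reads of that pair cannot be told apart where they overlap. A readthrough gene, Gm28053, shares 3.48% of the exon length of Gimap7, 6.44% of Gimap1 and 3.69% of Gimap5.

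Gimap4 was the member by which the tissues stood furthest apart. Gimap4 encodes a protein that hastens the death of T cells once apoptosis has begun. Neither brain library held a count of it (0 and 0), and the dura mater libraries held 6240 and 4164. As CPM, the counts of a gene relative to the library size after trimmed-mean normalisation, its dura mater values were 461 and 253, or 357 ± 147 (SD, n = 2). At the limit of 3 counts that a count of 0 allows in a brain library, Gimap4 stood at least 1588-fold higher in the dura mater group. That limit covers counting error only, and replicates of these tissues differed by far more than counting error. It was the gene with the 367th highest count of dura mater replicate 1 and the 687th highest of replicate 2. The dura mater replicates differed by 1.82-fold in Gimap4, close to the median of 1.54-fold among the 4266 genes with 64 or more counts in all 4 libraries. Gimap4 was 1 of 303 symbols at 0 in both brain libraries and at 64 or more in both dura mater libraries. Such one-sided symbols were unevenly split between the tissues. At 64 or more in both dura mater libraries and 7 or fewer in both brain libraries stood 761 symbols, and 47 stood the other way round.

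Gimap8, the member with repeated GTPase domains, was low in every library. Its counts were 25 and 3 in brain ECs compared with 229 and 347 in dura mater ECs, which is 1.71 and 0.225 CPM against 16.9 and 21.1 CPM. The groups did not overlap, as was so, in that direction, for 26.2% of all genes tested. The ratio of the mean CPM, 19.0 ± 2.93 against 0.967 ± 1.05 (SD, n = 2 each), was 19.6. The brain libraries differed from each other by 7.60-fold in Gimap8, on few counts, while the dura mater libraries lay close together.

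Gimap5 encodes a lysosomal member that mature T cells need to survive, and it is also the member known from liver endothelium. It had 1355 and 564 counts in brain ECs compared with 2423 and 1254 in dura mater ECs. These were 92.7 and 42.3 CPM (67.5 ± 35.6, SD, n = 2) against 179 and 76.1 CPM (128 ± 72.8). The groups overlapped, because dura mater replicate 2 lay below brain replicate 1, and the ratio of the means was 1.89. That ratio rested most on dura mater replicate 1. The log2 difference, taken as dura mater over brain from edgeR with a prior count of 2, was 0.92 in all libraries. It was 0.03 without dura mater replicate 1, 1.39 without dura mater replicate 2, 0.41 without brain replicate 2 and 1.56 without brain replicate 1. Gimap5, Gimap6 and Gimap1 were the members with 64 or more counts in all 4 libraries.

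Gimap6 encodes a binding partner of Gabarapl2, a protein of the autophagy machinery. Gimap6 had 1223 and 155 counts in brain ECs compared with 1731 and 1255 in dura mater ECs, or 83.6 and 11.6 CPM against 128 and 76.2 CPM. The groups overlapped here too, with dura mater replicate 2 below brain replicate 1. The ratio of the means (102 ± 36.6 over 47.6 ± 50.9, SD, n = 2 each) was 2.14, and most of it came from brain replicate 2. The log2 difference was 1.10 in all libraries, 0.23 without brain replicate 2 and 3.08 without brain replicate 1.

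Gimap1 encodes a member on which mature B and T cells depend. It ran in the opposite order of replicates, with 330 and 2598 counts in brain ECs compared with 343 and 1573 in dura mater ECs. Those counts were 22.6 and 195 CPM against 25.4 and 95.5 CPM, so both dura mater libraries lay between the brain libraries. The mean was lower in dura mater ECs, 60.4 ± 49.6 against 109 ± 122 CPM (SD, n = 2 each), a ratio of 0.556. That direction rested on brain replicate 2, since the log2 difference was −0.84 in all libraries and 1.33 without it. Between the brain replicates, Gimap1 differed by a fold that 3.84% of the 4266 genes with 64 or more counts in all libraries reached, and Gimap6 by one that 5.39% reached.

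Gimap9 was counted almost only in 1 library. It had 7 and 0 counts in brain ECs, 1 count in dura mater replicate 1 and 408 counts (24.8 CPM) in dura mater replicate 2. Its dura mater value thus rested on a single library, and no mean is given. Gimap9 was thus 1 of the 1208 symbols at 64 or more in dura mater replicate 2 and at 7 or fewer in the other 3 libraries.

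Gimap7, whose protein stimulates GTP hydrolysis by other members, and Gimap3, the close relative of Gimap5 that acts with it in T cells, had 0 counts in each of the 4 libraries. A count of 0 in a library allows up to 3 counts, which was 0.182 to 0.225 CPM here, by counting error alone. At this depth neither was detectable in ECs of either tissue. They were 2 of 9622 symbols at 0 throughout, and the 3′ ends searched for them were distinct from those of the counted members.

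**Figure D1:**
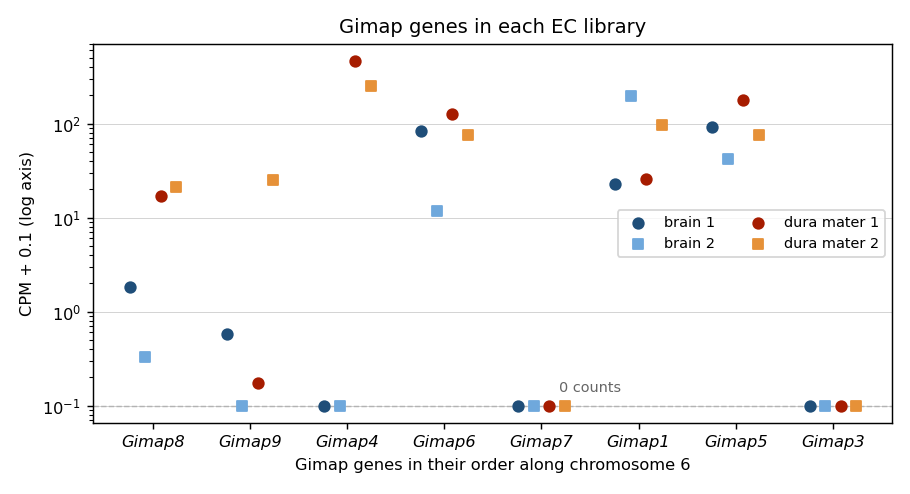
CPM + 0.1 (log axis) of each Gimap gene, in chromosomal order, in each EC library; each point is 1 library, and points on the dashed line had 0 counts. Gimap4 sits at 461 and 253 CPM in dura mater ECs and at 0 in both brain libraries, whereas the points of Gimap5, Gimap6 and Gimap1 from the 2 tissues are interleaved.

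Of the 8 members, 5 passed edgeR's filter on low counts (Gimap8, Gimap4, Gimap6, Gimap1 and Gimap5). In the fit across all 9347 genes, 1 of them, Gimap4, which passed the filter through its dura mater counts alone, was called higher in dura mater ECs, where 0.428% of all genes tested were called higher and 0.182% lower. Gimap4 and Gimap8 were the 2 of those 5 whose groups did not overlap, both higher in dura mater ECs, against 26.2% of all genes tested. The log2 difference was above 0 for 4 of the 5, with a median of 1.10 beside −0.0069 over all genes. The members were chosen by this same contrast, so these counts describe the choice and are no test of it. In bulk RNA, fewer cells of a type and less RNA per cell cannot be told apart, so whether all dura mater ECs or some of them held Gimap4 was not tested.

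In sum, the family held 2940 and 3320 counts in brain ECs compared with 10967 and 9001 in dura mater ECs. The summed CPM was 201 and 249 in brain ECs (225 ± 33.7, SD, n = 2) and 811 and 546 in dura mater ECs (679 ± 187), a ratio of 3.02. Most of that gap was Gimap4. The remaining 7 members summed to 201 and 249 CPM in brain ECs and to 349 and 294 CPM (322 ± 39.4) in dura mater ECs, a ratio of 1.43. The groups of that sum did not overlap, as was so, in that direction, for 26.2% of all single genes tested. Among the counted genes in it, the groups of Gimap8 alone did not overlap, and those of Gimap5, Gimap6, Gimap1 and Gimap9 did. The brain sums were alike although their parts were not: Gimap1 was higher in replicate 2 (195 against 22.6 CPM), while Gimap6 and Gimap5 were 7.20-fold and 2.19-fold higher in replicate 1.

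Which member held the counts differed between libraries of 1 tissue as well as between tissues. In dura mater replicate 1, Gimap4 held 56.9% of the Gimap counts (95% Wilson interval 56.0 to 57.8), Gimap5 22.1% (21.3 to 22.9), Gimap6 15.8% (15.1 to 16.5), Gimap1 3.13% (2.82 to 3.47) and Gimap8 2.09% (1.84 to 2.37). In replicate 2, Gimap4 held 46.3% (45.2 to 47.3), Gimap1 17.5% (16.7 to 18.3), Gimap6 13.9% (13.2 to 14.7), Gimap5 13.9% (13.2 to 14.7), Gimap9 4.53% (4.12 to 4.98) and Gimap8 3.86% (3.48 to 4.27). Gimap4 thus led in both, and the rank of Gimap1 differed. These intervals cover counting error only, and the replicates lay outside each other's intervals for each member counted in both.

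In brain ECs, where Gimap4 was at 0, the lead passed between Gimap5 and Gimap1. Brain replicate 1 had 46.1% of its Gimap counts in Gimap5 (44.3 to 47.9), 41.6% in Gimap6 (39.8 to 43.4) and 11.2% in Gimap1 (10.1 to 12.4). Brain replicate 2 had 78.3% in Gimap1 (76.8 to 79.6), 17% in Gimap5 (15.7 to 18.3) and 4.67% in Gimap6 (4.0 to 5.44). At the limit of 3 counts, Gimap4 could hold a share of up to 0.102% in brain replicate 1 and 0.0904% in replicate 2. That limit covers counting error only, not the spread between replicates.

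**Figure D2:**
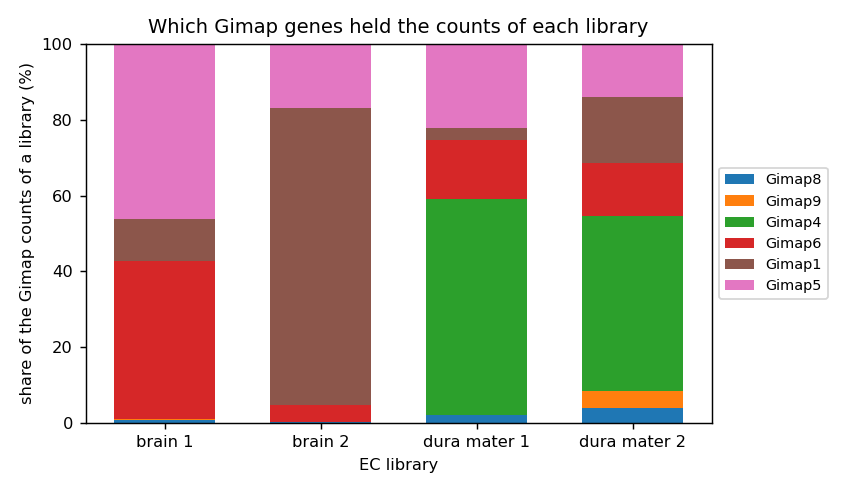
Share of the Gimap counts of each EC library (percent, bars reach 100) held by each member. Gimap4 takes 56.9% and 46.3% of the dura mater bars and none of the brain bars, and Gimap1 takes 78.3% of the bar for brain replicate 2.

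Levels of different genes were also compared per length, as counts per kb of the longest annotated transcript. Because QuantSeq samples the 3′ end, its counts need not grow with length, and this scale lowers genes with long transcripts, so both scales are given. On that scale the share of Gimap4 was 64.9% and 49.95% in the dura mater libraries. In replicate 1 it was followed by Gimap5 (19.5%), Gimap6 (10.2%) and Gimap1 (3.99%), and in replicate 2 by Gimap1 (21.1%), Gimap5 (11.7%), Gimap6 (8.54%) and Gimap9 (6.38%). Gimap4 led on both scales in both dura mater libraries, whereas the order of Gimap5, Gimap6 and Gimap1 below it was not the same in both. In brain ECs, Gimap5 led per length in replicate 1 (49.2%) and Gimap1 in replicate 2 (84.6%).

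Because the family is known best from lymphocytes, leukocyte markers were read beside it. Of 10 T cell markers listed, 9 were matched in the count tables, and 6 of these were at 0 in every library, among them Cd3e, Cd3d, Cd3g and Cd247, the defining chains of the T cell receptor complex. The other 3 (Lck, Il7r and Lat) summed with them to 0 and 0.525 CPM in brain ECs and to 3.25 and 14.0 CPM in dura mater ECs. Cd79a, a part of the B cell receptor, had 1 and 0 counts in brain ECs compared with 0 and 9 in dura mater ECs, and the other 4 of 5 B cell markers and all 4 NK cell markers were at 0 in every library. Gimap4 alone was at 461 and 253 CPM in the same dura mater libraries. The 6 markers common to leukocytes summed to 94.9 and 58.7 CPM in brain ECs compared with 18.3 and 30.3 CPM in dura mater ECs. A single gene made most of each brain sum. Laptm5 had 1377 and 12 counts in brain ECs compared with 204 and 133 in dura mater ECs, and Arhgdib 2 and 731 against 2 and 317. The others were low and mixed: Coro1a had 0 and 0 against 1 and 36 counts, Cd52 7 and 22 against 33 and 10, and Rac2 1 and 15 against 3 and 0. Platelet markers summed to 46.5 and 0.375 CPM in brain ECs compared with 36.2 and 16.2 CPM in dura mater ECs.

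Other marker lists were higher in the dura mater libraries, as Gimap4 was. Lymphatic endothelial markers summed to 122 and 143 CPM in brain ECs compared with 364 and 404 CPM in dura mater ECs. Within that list, Prox1 (0 and 0 against 492 and 125 counts), Lyve1 (0 and 0 against 911 and 1776) and Mmrn1 (0 and 0 against 1132 and 690) were at 0 in both brain libraries, as was Gimap4, while Flt4 (1777 and 1905 against 2384 and 4018) was counted in all. Pdpn, the remaining gene of the list, was low and did not separate the tissues (3 and 7 against 3 and 45 counts). Fibroblast markers summed to 2.74 and 4.57 CPM against 144 and 176 CPM through Col1a1 and Dcn, with Pdgfra at no more than 1 count and Lum at no more than 4 in any library. Myeloid markers summed to 1.504 and 51.3 CPM against 95.3 and 37.9 CPM, so the groups overlapped, but Cd68 (4 and 3 against 550 and 441 counts) and Fcer1g (6 and 17 against 610 and 173) did not. Csf1r ran the other way, with 4 and 646 counts against 28 and 9, and made most of the myeloid sum of brain replicate 2, while Itgam had 1 and 2 counts against 87 and 0. Lyz2 and Tyrobp, also myeloid, had no more than 9 counts in any library. The part of lymphatic endothelial, fibroblast, myeloid or other leukocyte RNA in the Gimap values was not tested.

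None of the 22 marker genes that entered the fit was called by edgeR at an adjusted p under 0.05, where 0.61% of all genes tested were called. At an unadjusted p under 0.05, reached by 10% of all genes, there were 5. They were 3 lymphatic endothelial genes, 1 fibroblast gene and 1 endothelial gene (Esam, lower in dura mater ECs). DESeq2 called 7, where it called 8.67% of all genes tested. The genes named singly in these lists beyond Ptprc, Cd3e, Cd79a, Pecam1 and Cdh5 were chosen after their values were seen.

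**Figure D3:**
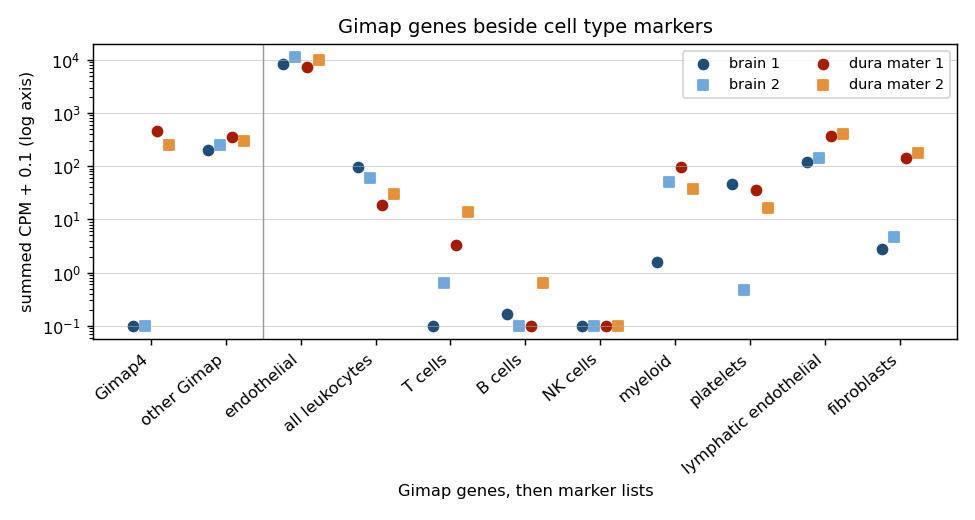
Summed CPM + 0.1 (log axis) of Gimap4, of the other 7 Gimap genes and of 9 marker lists in each EC library, 1 point per library. In dura mater ECs Gimap4 is at 461 and 253 CPM and the T cell list at 3.25 and 14.0 CPM. The lymphatic endothelial and fibroblast lists are also higher in dura mater than in brain libraries. The part of RNA from other cell types in the Gimap values was not tested.

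Genes of 3 groups that work like Gimap proteins or with them were followed in the same fit. Interferon-inducible GTPases are the other large set of immune GTPases. They include the Irg and Gbp families, which attack vacuoles of microbes, and the Mx family. Of 21 listed, 17 were tested and 0 were called by edgeR, against 0.61% of all genes tested. The log2 difference was above 0 for 14 of them, with a median of 1.11 beside −0.0069 over all genes. Their summed CPM was 1122 and 810 in brain ECs compared with 2025 and 1262 in dura mater ECs. The Gimap sum was thus smaller than that of this list in each library. The 1 gene with an unadjusted p under 0.05, which 10% of all genes reached, was Iigp1, with 102 and 474 counts in brain ECs compared with 6764 and 2537 in dura mater ECs (log2 difference 3.94, edgeR adjusted p = 0.286).

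The Bcl2 family, which decides on apoptosis at the mitochondrion and with which Gimap proteins have been linked, had 11 of 16 genes tested and 0 called by edgeR (0.61% of all genes), with a median log2 difference of 0.54 beside the same −0.0069. Bcl2l1, the survival factor Bcl-xL, had 18057 and 11807 counts in brain ECs compared with 3677 and 3536 in dura mater ECs (log2 difference −2.12, edgeR adjusted p = 0.0966), and was the 1 gene of the list with an unadjusted p under 0.05 (10% of all genes). Bcl2l1 therefore ran opposite to Gimap4. The Atg8 conjugation genes of autophagy had 14 of 15 tested and 0 called by edgeR, with a median of 0.11, and 1 (Atg4d) had an unadjusted p under 0.05, beside the same shares of all genes. Gabarapl2, the partner of Gimap6, had 676 and 1454 counts in brain ECs compared with 163 and 1085 in dura mater ECs, so its groups overlapped as those of Gimap6 did. Over the 3 lists, DESeq2 called 3 of the 42 genes tested (Atg4d, Bcl2l1 and Iigp1), where it called 8.67% of all genes. Bcl2l1, Iigp1, Atg4d and Gabarapl2 were named after their values were seen.

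The genes around the cluster were read to see whether they shared its pattern. Within 500 kb of either end, 23 other genes were in the count tables, 13 of them had a count in at least 1 library and 10 were tested. None was called by edgeR, 2 had an unadjusted p under 0.05 (against 10% of all genes) and DESeq2 called 1. The groups did not overlap for 6 of the 10, 5 of them higher and 1 lower in dura mater ECs, beside 26.2% and 16.9% of all genes tested. On the Gimap8 side the 3 nearest counted genes were Zfp775, with 0 and 424 counts in brain ECs compared with 0 and 467 in dura mater ECs, Repin1, with 810 and 6 against 1898 and 1054, and Rarres2, with 1 and 1 against 7 and 22. Zfp775 was counted in 1 library of each tissue, and AI854703, which lies between it and Gimap8, was at 0 throughout. Farther out, Lrrc61, which overlaps 33.6% of the exon length of Rarres2 in antisense, had 1 and 1 counts against 151 and 39. Zfp467 had 0 and 0 against 1 and 992. Lrrc61 and Zfp467 were named after their values were seen.

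On the Gimap3 side, the nearest genes were Tmem176b and Tmem176a, membrane proteins best known from dendritic cells. Tmem176b, 63.0 kb beyond the cluster, had 609 and 351 CPM in brain ECs compared with 1569 and 2097 CPM in dura mater ECs (log2 difference 1.93, SE 0.39, edgeR adjusted p = 0.148). Tmem176a, 70.1 kb beyond it, had 18.7 and 27.3 CPM against 123 and 173 CPM (2.68, SE 0.88, edgeR adjusted p = 0.428). Both were counted in all 4 libraries without overlap of the groups, and neither was at 0 in brain ECs as Gimap4 was. The pair shares 81 antisense exon bases. Tmem176b was the gene that DESeq2 called. Gpnmb, the third counted gene on that side, had 17 and 61 counts in brain ECs compared with 42 and 30 in dura mater ECs.

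**Figure D4:**
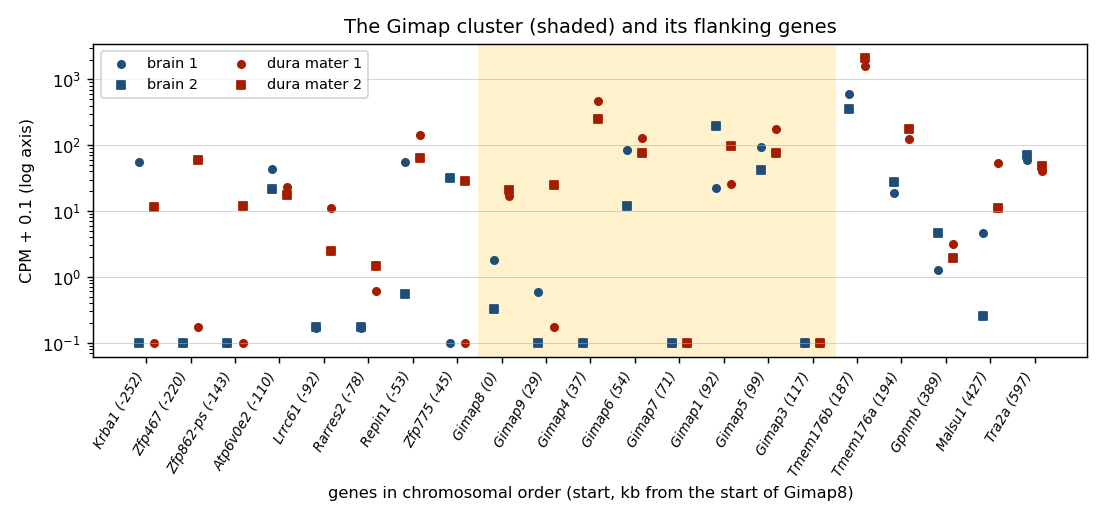
CPM + 0.1 (log axis) of the 8 Gimap genes (shaded) and of the 13 counted genes within 500 kb of the cluster, in chromosomal order, with the distance of each start from that of Gimap8 in kb; brain points are blue, dura mater points red, and points at 0.1 had 0 counts. Inside the shading Gimap4 is at 0 in brain libraries only, while its neighbour Gimap6 is counted in all 4 libraries and its neighbour Gimap9 almost only in dura mater replicate 2.

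Gimap4 was at 0 in brain ECs, whereas Gimap5 was counted in every library. Their promoters are printed for that reason, as the 250 bases before the annotated start in RefSeq (GRCm38.p6, plus strand), 5′ to 3′, with matches to the motifs listed next in capitals on either strand (ACCACA and GGGTGG are TGTGGT and CCACCC read on the other strand).
Gimap4, chr6:48684328-48684577: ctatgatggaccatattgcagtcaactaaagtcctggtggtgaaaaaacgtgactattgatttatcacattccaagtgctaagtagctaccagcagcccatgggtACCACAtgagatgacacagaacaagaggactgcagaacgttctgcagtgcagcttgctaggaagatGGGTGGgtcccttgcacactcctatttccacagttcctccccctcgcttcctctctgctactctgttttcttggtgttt
Gimap5, chr6:48745947-48746196: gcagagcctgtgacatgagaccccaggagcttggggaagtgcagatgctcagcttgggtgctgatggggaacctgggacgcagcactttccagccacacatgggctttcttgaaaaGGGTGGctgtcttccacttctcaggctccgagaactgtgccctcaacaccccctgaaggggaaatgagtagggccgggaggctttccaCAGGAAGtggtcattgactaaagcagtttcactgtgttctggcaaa

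All 8 members had a promoter in RefSeq, 9 in all because Gimap8 has 2 starts whose windows overlap, and 8 short motifs, none contained in another, were searched on both strands. The motif CCACCC, read by KLF and SP factors, stood in 5 members (Gimap8, Gimap9, Gimap4, Gimap5 and Gimap3) and in 28.1% of 32851 promoters of RefSeq, 1 chromosome left out. The ETS motif CAGGAAG stood in 3 (Gimap9, Gimap5 and Gimap3) and in 10.8% of promoters, and the ETS core CCGGAA in none and in 12.0%. The RUNX motif TGTGGT stood in 3 (Gimap4, Gimap7 and Gimap1) and in 14.0%. TATAAA, the letters of the TATA box, stood in 1 (Gimap6, on the opposite strand, 219 bases before the start) and in 12.4%. ACAAAG, read by TCF and LEF factors, stood in 2 (Gimap8 and Gimap3) and in 16.5%. The paired interferon-response motif of IRF factors and the GATA motif AGATAA were in none of them and in 2.98% and 9.99% of promoters. No motif of the 8 stood in all members, and Gimap4 and Gimap5 shared CCACCC. Member promoters held 1 to 8 CpG and 43.6% to 61.2% G and C, beside medians of 6 and 52.4% over those 32851 promoters. A match of letters is not a bound site.

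The 5 other genes whose profile over the 4 libraries lay nearest to that of the Gimap sum, by Euclidean distance of log2(CPM + 1), were Clu (0.174), Slc38a2 (0.463), Mgll (0.579), Pcdhga9 (0.648) and Midn (0.677). Clu, which encodes the secreted chaperone clusterin, had 211 and 227 CPM in brain ECs compared with 848 and 521 CPM in dura mater ECs, beside 201, 249, 811 and 546 for the Gimap sum. The 5 genes nearest to Gimap4 alone, a search added after its values were seen, were Aebp1 (0.410), Tulp2 (0.487), Tspan7 (0.606), Pdlim1 (0.638) and Fgl2 (0.660). Each of these 5 had at most 4 counts in a brain library. The distance rests on 4 libraries and says nothing of shared function.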

How the data were processed

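RNA of sorted dura mater and brain ECs was sequenced in 2 libraries per group. The authors deposited, for each library, raw counts for 23282 symbols, unscaled and unfiltered. The methods name TopHat for mapping and cufflinks for expression, while the submitters' processing notes name Bowtie2, edgeR and the mm10 build. The step that made the counts, the annotation, the use of strand and any molecular identifiers are not given in the sources used here. Symbols on more than 1 line (35) were tested line by line.

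Groups came from the sample labels. In place of cufflinks, which needs alignments, edgeR 4.0.16 (R 4.3.3) was run on the counts: TMM normalisation, filterByExpr, the older dispersion estimate, a quasi-likelihood test on tissue alone, and p-values adjusted by Benjamini-Hochberg across the 9347 genes tested. Genes with an adjusted p under 0.05 are said to be called. CPM are counts over TMM-scaled library sizes. The standard error (SE) was the log2 difference over the square root of F. The labels do not say that libraries came from separate mice, so p-values measure only the spread between these libraries. With 2 against 2, an exact permutation test of a single value cannot pass 0.05.

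Libraries numbered alike in the titles did not deviate together (correlation −0.0208 across genes). Alternatives were DESeq2 1.42.0, other scalings, filters, dispersion estimate and prior count, a replicate block, and each library left out in turn. Scripts were tested on simulated data whose replicates varied far less than these. The coefficient of variation between replicates that edgeR estimated here was 1.39, so the simulation does not show how the fit behaves at this spread. The members, lists, alternatives and tests were chosen with earlier results of these data known. Genes named were the 8 members, list genes that passed (at most 4 a list), Ptprc, Cd3e, Cd79a, Pecam1 and Cdh5, the 3 nearest counted genes on each side of the cluster and any neighbour that passed, and the 5 genes nearest in profile to the Gimap sum. Positions and transcripts are from GENCODE M21 (GRCm38), with all 8 members matched by symbol, and promoters from RefSeq (GRCm38.p6).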

Additional observations from a re-analysis of the deposited data

How the results depend on the processing

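The members' contrast chose the family, so the following values describe it and test nothing. Of the members, 1 (Gimap4) was counted as called under each setting except a minimum of 10 counts in every library, which left 3 members to fit and 0 called, because Gimap4 was no longer among them. With a library left out, the lone library of its group was assumed to vary like the other group. The log2 difference of Gimap4 ran from 10.78 to 14.67. With 0 counts in both brain libraries, its size is set largely by the prior count and the tool. It was 11.34 with a prior count of 2, 13.34 with 0.5 and 14.67 in DESeq2. The log2 difference of Gimap8 ran from 3.31 to 5.68, that of Gimap6 from 0.23 to 3.08 and that of Gimap5 from 0.03 to 1.56. Gimap1 ran from −2.12 to 1.33 with libraries left out and was above 0 only without brain replicate 2. The Gimap sum in dura mater ECs ran from 546 to 811 CPM. Per kb, Gimap6 held 9.38% of the dura mater Gimap counts in place of 14.9%.

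Over all genes, 57 differed. The number was 810 in DESeq2, 326 with no filter, 141 with at least 10 counts in every library, 305 with the newer dispersion estimate, 224 with the replicate block and 80 to 740 with 1 library left out, the most without brain replicate 1 (740) or 2 (701). For the related lists, 0 became 3 in DESeq2, 2 with no filter, with 10 counts, with the newer estimate and with the block (Bcl2l1 and Iigp1 with the block), and 0 to 5 with 1 library left out. For the marker lists, 0 became 7 in DESeq2, 2 with no filter (Lyve1 and Mmrn1), 1 with 10 counts (Dcn), 1 with the newer estimate (Esam), 0 with the block and 0 to 3 with 1 library left out, the 3 (Dcn, Lyve1 and Mmrn1) without either brain library. For the neighbours, 0 became 1 (Tmem176b) in DESeq2, with no filter, with 10 counts, with the newer estimate and with the block, and 0 to 2 with 1 library left out, the 2 (Repin1 and Tmem176b) without brain replicate 1. The filters change the genes tested, and so does leaving out a library (10054 to 11596 tested, against 9347). Apart from that, the cause was not tested. With the block, the log2 difference was 11.29 for Gimap4, 4.52 for Gimap8, 1.65 for Gimap6, −0.43 for Gimap1 and 0.90 for Gimap5. Whether libraries with the same number were paired is not given, so the block is only a setting.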
